A study of Homo sapiens with 20 samples.

Results

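Long clusters of H3K27ac peaks were described in G401 cells, an established line from a human rhabdoid tumour. The labels give the cells as SMARCB1(-/-), with GFP (the control) or SMARCB1 induced by doxycycline. All libraries compared here therefore came from cells of 1 line without their own SMARCB1, and the induction time is not in the labels. A cluster was formed in each library by joining H3K27ac peaks separated by 12500 bp or less, and it was kept if it spanned at least 100 kb from the start of its first peak to the end of its last. Kept clusters that overlapped between libraries were merged, which gave 618 long clusters among 18523 merged clusters of any span. Coordinates are those of the hg19 build. Of the 20 samples, 4 are H3K27ac chromatin immunoprecipitation sequencing libraries with a peak list, 2 of each arm, and these were used. The other antibody targets (H3K4me3, H3K4me1 and SMARCA4) and input DNA were not analysed here. Nothing in the labels says that replicates came from separate cultures, so the spread between them may be technical.

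H3K27ac is an acetylation of histone H3 that marks active enhancers and promoters. Acetylated enhancers often lie in groups, and peaks joined over short gaps are the usual starting point for finding super-enhancers, large enhancer groups that tend to lie near genes of cell identity. SMARCB1 is a core subunit of SWI/SNF remodelling complexes, which move nucleosomes and open chromatin at enhancers, and its loss is the defining lesion of rhabdoid tumours. The comparison of the arms asks where long tracts of acetylation stand in these cells with and without the subunit.

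The lists held 98251 and 79555 peaks with GFP and 145533 and 135472 with SMARCB1. Read totals were not given in the files. For 42.8% to 58.2% of peaks the fold enrichment lay on even steps, read here as what 1 fragment adds at the genome-wide background. A larger step then means less depth, unless the caller scaled the libraries, which is not given in the sources used here. The step was 0.354 and 0.211 with GFP and 0.168 and 0.205 with SMARCB1. GFP replicate 1 had the largest step, while the shortest list was that of GFP replicate 2, with a step of 0.211. The part of depth in the results below was not tested beyond the comparison of peak lists.

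The GFP libraries (replicates 1 and 2) had 360 and 254 long clusters, and the SMARCB1 libraries had 509 and 418. Every SMARCB1 library was above both GFP libraries. The means were 307 ± 74.95 with GFP and 463.5 ± 64.3 with SMARCB1 (SD, n = 2), a difference of 156.5 clusters. The mean number of peaks was 1.58 times as high with SMARCB1 and the mean number of long clusters 1.51 times as high. These numbers are what the selection itself counted, so they were not tested. The summed span of the clusters was 58.3 and 40.3 Mb with GFP and 84.1 and 67.1 Mb with SMARCB1. Their typical length hardly differed, with a median span of 140 and 135 kb with GFP and 143 and 137 kb with SMARCB1. The longest reached 541 and 388 kb with GFP and 628 and 621 kb with SMARCB1.

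**Figure D1:**
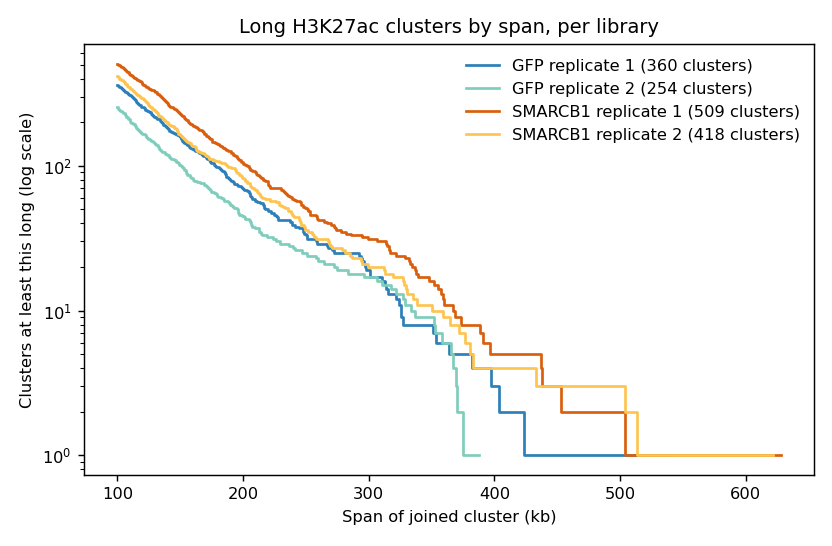
Number of joined H3K27ac clusters (log scale) at least as long as the span on the x axis (kb), 1 line per library. At 100 kb the lines stand at 254 and 360 for GFP and at 418 and 509 for SMARCB1.

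The excess of long clusters with SMARCB1 depended on the peak list. When each library gave its strongest 79555 peaks, ranked by -log10 p, the GFP libraries had 284 and 254 long clusters and the SMARCB1 libraries 255 and 215, a mean difference of -34 clusters. The counts of the arms overlapped. A limit of at least 4-fold enrichment kept 67427 and 39118 peaks with GFP and 57442 and 55172 with SMARCB1, in lists that differ in fold step. With these peaks the libraries had 229 and 119 against 167 and 126 long clusters, a difference of -27.5 with the arms overlapping. With peaks of a -log10 q of at least 5 they had 173 and 155 against 227 and 178, a difference of 38.5 with both SMARCB1 libraries still above both GFP libraries.

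Many clusters held a gap near the joining limit, where the largest of many gaps tends to lie by construction. With a limit of 10 kb there were still 281 and 195 long clusters with GFP and 400 and 293 with SMARCB1. The largest gap inside a cluster had a median between 9.93 and 10.1 kb in the 4 libraries, and it was over 10 kb in 182 and 125 clusters with GFP and in 249 and 215 with SMARCB1. The clusters nearest the span limit also show how it divides a continuous range. In SMARCB1 replicate 1 the shortest kept cluster lay at chr17:19166310-19266368 with a span of 100059 bp, and the longest one left out at chr19:5893224-5993213 with a span of 99990 bp. In SMARCB1 replicate 2 they were chr19:15351674-15451882 (100209 bp) and chr13:63960745-64060680 (99936 bp). In GFP replicate 1 they were chr9:140072137-140172405 (100269 bp) and chr20:62241202-62341056 (99855 bp), and in GFP replicate 2 chr17:47975405-48075508 (100104 bp) and chr19:14583226-14682886 (99661 bp).

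Of the 618 merged long clusters, 181 were kept in all 4 libraries, 129 in both SMARCB1 libraries and neither GFP library, and 30 in both GFP libraries and neither SMARCB1 library. Another 173 were kept in a single library, 46 and 7 of them in the GFP libraries and 86 and 34 in the SMARCB1 libraries. The remaining 105 had other patterns, 76 of them in 3 libraries and 29 in 1 library of each arm. Among merged clusters of any span, 47% were in all 4 libraries, 16.8% in both SMARCB1 libraries only and 2.62% in both GFP libraries only. Among the long clusters the shares were 29.3%, 20.9% and 4.85%. The classes are defined by the same contrast, so nothing is read from these shares.

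The balance of the 2 arm-specific classes turned with the peak list. Lists of equal length, 79555 peaks each, left 43 clusters in both SMARCB1 libraries only and 69 in both GFP libraries only. With a fold enrichment of at least 4 there were 21 and 32, and with a -log10 q of at least 5 there were 51 and 32. No cluster of either arm-specific class moved to the opposite class under any of these settings. Leaving out GFP replicate 2 raised the clusters of the GFP class to 77, and leaving out SMARCB1 replicate 1 to 48. Leaving out SMARCB1 replicate 2 raised those of the SMARCB1 class to 219. Without a library, a class asks for presence or absence in fewer libraries, so higher counts are favoured by construction.

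**Figure D2:**
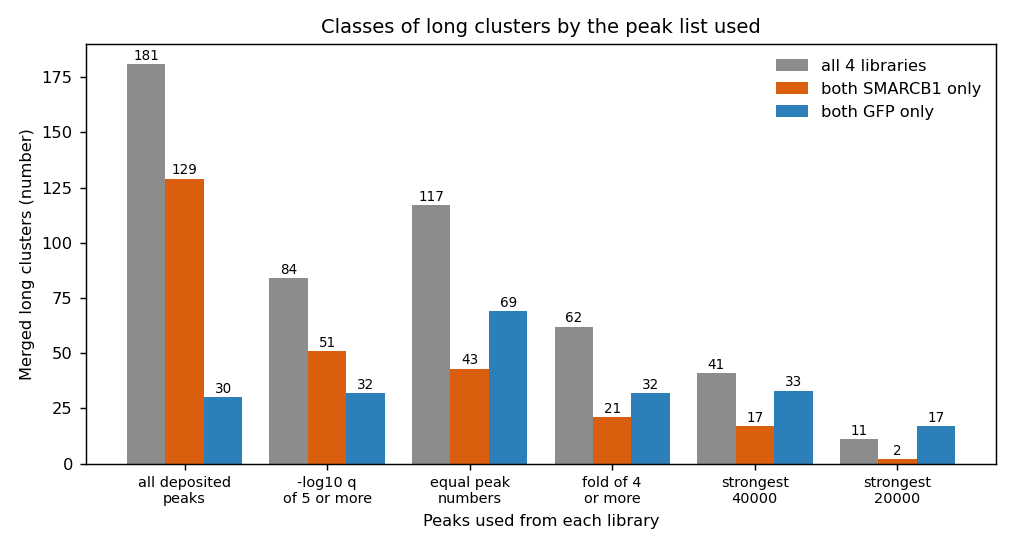
Number of merged long clusters in all 4 libraries, in both SMARCB1 libraries only and in both GFP libraries only, for 6 ways of choosing peaks from each library. With all deposited peaks the SMARCB1 bar stands at 129 and the GFP bar at 30, and with equal peak numbers they stand at 43 and 69.

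The 181 clusters kept in all 4 libraries spanned 43.1 Mb after merging, from 108 to 686 kb with a median of 206 kb, and 42 of them were 300 kb or longer. Peaks covered 48.5% and 47.2% of this sequence with GFP and 56.6% and 50.4% with SMARCB1. Both SMARCB1 libraries covered more than both GFP libraries, with means of 53.5% ± 4.42 and 47.8% ± 0.904 (SD, n = 2). The difference of 5.66 percentage points had p = 0.3333 in an exact two-sided permutation test, which is the smallest p that 2 libraries against 2 can give. The peak lists that formed these clusters also gave their cover, so nothing is concluded from the p-values. With equal numbers of peaks the libraries of the arms overlapped in covered share, at 54.6% and 56.2% with GFP and 60.4% and 54.8% with SMARCB1, a difference of 2.18 points (p = 0.667, exact two-sided permutation). Measured inside each library's own clusters instead of the merged ones, the difference was 1.27 points (p = 0.667, exact two-sided permutation). The difference was 2.04 points without SMARCB1 replicate 1, and it reversed to -0.825 with the strongest 40000 peaks of each library and to -3.56 with the strongest 20000.

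Peaks were also more numerous in the common clusters with SMARCB1, at 44.1 and 46.4 per 100 kb against 40.9 and 35.4 with GFP. The difference was 7.10 peaks per 100 kb (p = 0.3333, again the smallest that the exact permutation allows). It reversed to -6.85 with equal numbers of peaks, where the GFP libraries had 36.2 and 38.6 per 100 kb and the SMARCB1 libraries 28.1 and 32.9, again with the smallest p of the exact permutation. It was also negative with a fold enrichment of at least 4 (-2.42) and with the strongest 40000 peaks (-2.14). These values too come from the lists that formed the clusters, so nothing is concluded from the p-values.

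In 78 of the 181 common clusters (43.1%) both SMARCB1 libraries covered a larger share than both GFP libraries, and in 37 (20.4%) both covered a smaller one. Among all 8707 merged clusters of any span present in the 4 libraries, the shares were 38.7% and 26.6%. The mean SMARCB1 share minus the mean GFP share ranged from -37.3 to 45.1 percentage points over the common clusters, with a median of 3.84. It was above 20 points in 23 clusters and more than 20 points the other way in 2. With equal numbers of peaks, 117 clusters were common, 37 of them with both SMARCB1 libraries higher and 36 with both lower. The balance turned with other lists, to 24 higher and 29 lower with a -log10 q of at least 5 and to 13 and 28 with a fold enrichment of at least 4. It was 7 and 18 with the strongest 40000 peaks and 1 and 4 with the strongest 20000.

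The common cluster with the largest increase in cover lay at chr8:128805912-129140672, a span of 335 kb. Peaks covered 33.0% and 36.0% of it with GFP and 81.2% and 78.0% with SMARCB1. The number of peaks there was similar, 158 and 168 against 145 and 179, so the peaks were wider with SMARCB1. The next were chr3:159442917-159648231 (25.8% and 28.2% against 68.8% and 64.2%), chr5:151036338-151189786 (20.9% and 19.9% against 61.7% and 57.2%) and chr10:13690510-13936924 (22.4% and 21.4% against 63.5% and 54.8%). In each of these 4 the replicates of an arm lay closer to each other than to the other arm.

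The common cluster that lost most cover with SMARCB1 was chr3:148985235-149113848, with 79.2% and 82.1% covered with GFP and 46.1% and 40.5% with SMARCB1. It was followed by chr1:167365298-167525454, with 77.7% and 80.4% against 60.8% and 56.2%. The longest joined pieces of the first were 127 and 128 kb with GFP and 119 and 120.4 kb with SMARCB1. Those of the second were 158 and 160.1 kb with GFP and 129 and 124 kb with SMARCB1, so it was also shorter with SMARCB1. These clusters were chosen by the size of their difference, which is given as a description.

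The longest common cluster, at chr8:130854895-131541165, spanned 686 kb but was far from alike in the 2 arms. Peaks covered 11.9% and 11.5% of it with GFP and 36.4% and 33.5% with SMARCB1, the lowest mean cover of the class. In GFP its longest unbroken clusters were 186 and 109 kb, and in the SMARCB1 libraries 355 and 621 kb. The second longest, chr7:47293480-47859597, was covered to 33.9% and 31.9% with GFP and to 51.4% and 46.1% with SMARCB1. The cluster at chr10:13983818-14525659 was covered to 33.4% and 34.6% against 48.4% and 43.6%, and the one at chr15:85835258-86359378 to 20.5% and 19.8% against 41.2% and 34.1%. The one at chr20:48859766-49416537 went the other way, with 47.3% and 46.1% against 41.8% and 35.9%. The next, chr11:63639534-64180524, did not separate the arms, with 40.7% and 32.4% against 43.4% and 34.0%.

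The common cluster with the highest mean cover, chr8:58401693-58530402, was nearly the same in every library. Its cover was 83.2% and 84.6% with GFP and 85.2% and 85.1% with SMARCB1. It consisted of only 11 and 9 peaks with GFP and 16 and 19 with SMARCB1.

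The edges of the common clusters were better shared within an arm than between arms. The distance between corresponding edges had a median of 2.17 kb between the GFP replicates and 1.57 kb between the SMARCB1 replicates, and between 6.71 and 8.30 kb for the 4 pairs of libraries from different arms. Within 1 kb of each other lay 39.0% and 42.5% of the 362 edges for replicates, and 23.5% to 27.3% across arms. Both edges fell within 1 kb in all 4 libraries for only 3 clusters. The libraries share these clusters by the selection, and the edges come from the same joining of the same peak lists. The lists differ in length between the arms, and the edges were not compared with lists of equal length. The distances are given as a description.

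Peak regions inside the common clusters, formed by merging overlapping peaks of the 4 libraries, were less one-sided than elsewhere. Of 17764 such regions, 12.04% were in both SMARCB1 libraries only, 4.68% in both GFP libraries only and 25.2% in all 4. Among all 167933 regions the shares were 17.5%, 3.94% and 16.7%. Regions of SMARCB1 only were 2.57 times as many as regions of GFP only in the common clusters and 4.63 times as many outside the long clusters. The choice of clusters present in all 4 libraries itself favours shared peaks, so no test was made.

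**Figure D3:**
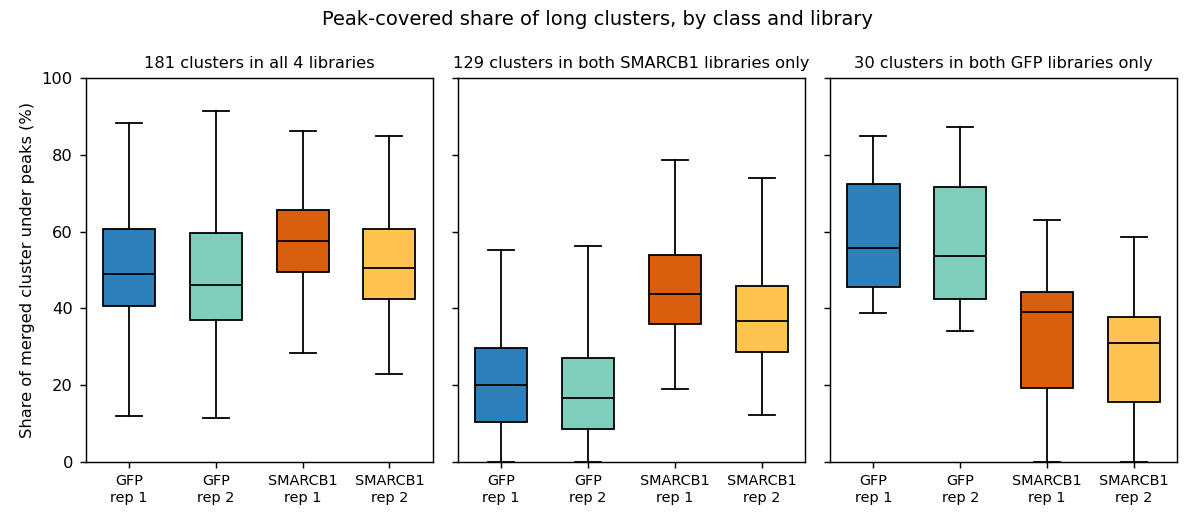
Share of each merged cluster under peaks (%), by library, for the 181 clusters in all 4 libraries, the 129 in both SMARCB1 libraries only and the 30 in both GFP libraries only. Boxes span the quartiles with the median as a line, and whiskers reach the lowest and highest cluster. The medians of the common clusters lie between 46.1% and 57.7%, and those of the 129 clusters drop to 16.8% and 19.9% in the GFP libraries.

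The 129 clusters kept in both SMARCB1 libraries only spanned 21.1 Mb, with a median of 149 kb and a maximum of 453 kb, and 23 were 200 kb or longer. Their median cover was 43.8% and 36.8% with SMARCB1 and 19.9% and 16.8% with GFP. The selection, made on joined span, favours the direction of this difference. It does not set how much acetylation the GFP cells had at these places. Most clusters were not empty there. Only 3 had no peak in either GFP library, and the median ratio of GFP cover to SMARCB1 cover was 48.1%. This ratio was under 25% in 32 clusters, from 25% to 50% in 35, from 50% to 75% in 47 and 75% or more in 15. In 6 clusters the covered shares of the arms overlapped.

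GFP pieces just short of the limit were frequent. The longest joined piece of either GFP library inside the cluster was 75 to 100 kb in 46 clusters, 50 to 75 kb in 35, 25 to 50 kb in 26 and under 25 kb in 22. Both GFP libraries had a peak-free stretch of over 25 kb in 76 clusters and of over 50 kb in 26. The clusters thus ran from tracts that were broken by a short gap in GFP to tracts with almost no GFP peaks.

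The longest cluster of this class lay at chr17:64297964-64751150 and spanned 453 kb in SMARCB1 replicate 1. Peaks covered 48.0% and 41.4% of it with SMARCB1 and 21.7% and 23.01% with GFP, where the longest pieces were 92.1 and 91.5 kb. The second longest, chr17:78518313-78914999, was covered to 35.03% and 26.3% with SMARCB1 and to 6.36% and 4.47% with GFP. The cluster at chr3:171752627-172090650 spanned 338 kb and held 231 and 230 peaks with SMARCB1, covering 44.6% and 37.1%. The GFP libraries had 10 and 8 peaks there, which covered 2.03% and 1.77% and left peak-free stretches of 165 and 231.5 kb. Nearly the whole tract was thus without GFP peaks.

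The cluster at chr16:89327861-89667107, which spanned 339 kb, was already partly acetylated, with 23.9% and 18.6% covered with GFP and 41.7% and 31.8% with SMARCB1. At chr17:55432404-55756709, cover went from 15.045% and 12.1% with GFP to 46.1% and 38.4% with SMARCB1. At chr1:214432671-214727720 it went from 11.0% and 11.2% to 60.2% and 51.6%. The most densely filled, chr15:99381940-99501144, had 78.8% and 74.0% covered with SMARCB1 and 37.5% and 36.1% with GFP. The most sparsely filled, chr13:99095716-99230451, had 19.1% and 12.2% against 5.21% and 3.40%.

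The 3 clusters without any GFP peak are named because they are few, after their values were seen. At chr6:142592575-142751184, a span of 159 kb, SMARCB1 peaks covered 60.1% and 54.5%. At chr3:173837783-173973301, a span of 136 kb, they covered 73.4% and 68.8%. At chr7:107551576-107707057, a span of 155 kb, they covered 36.5% and 29.6%. All 3 were long tracts in SMARCB1 cells, with 36 to 73 peaks per library, where neither GFP list held a single call.

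**Figure D4:**
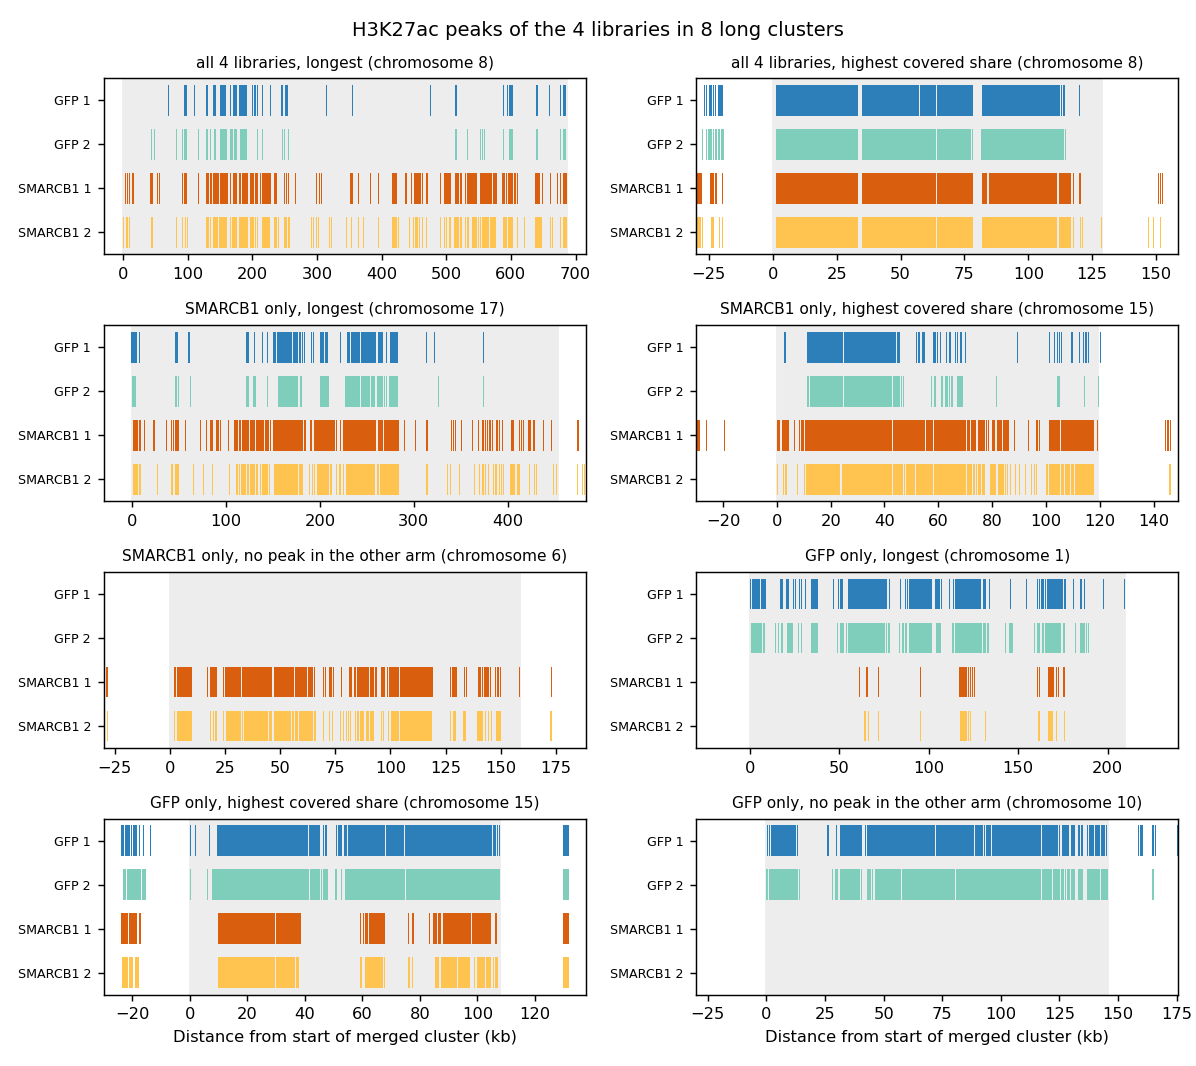
H3K27ac peaks (bars) of the 4 libraries along 8 long clusters, with the distance from the start of the merged cluster in kb on the x axis and the merged cluster in grey. Shown are the longest and the most densely filled cluster of each class, and the longest cluster of each arm with no peak in the other. The clusters on chromosomes 6 and 10 are filled in 1 arm (60.1% and 54.5%, and 79.1% and 81.2%) and empty in the other.

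The 30 clusters kept in both GFP libraries only spanned 4.07 Mb, with a median of 126 kb and a maximum of 209 kb. Their median cover was 55.8% and 53.6% with GFP and 39.1% and 31.1% with SMARCB1. Here too the selection favours the direction without fixing it. SMARCB1 cover relative to GFP cover had a median of 58.9% and a maximum of 111%. It was under 25% in 6 clusters, from 25% to 50% in 5, from 50% to 75% in 14 and 75% or more in 5. The longest SMARCB1 piece was 75 to 100 kb in 11 clusters, 50 to 75 kb in 11, 25 to 50 kb in 3 and under 25 kb in 5. Most of these tracts were thus shortened or thinned with SMARCB1, and few were emptied.

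The longest, chr1:167070791-167280265, was covered to 45.1% and 48.8% with GFP and to 7.89% and 5.91% with SMARCB1, where its longest pieces were 16.2 and 15.2 kb. The next long cluster along the chromosome is the common one at chr1:167365298-167525454 that also lost cover. The second, chr10:73571678-73774770, fell from 38.9% and 34.2% covered to 25.4% and 20.01%, the lowest GFP cover of the class. The third, chr9:138940855-139137020, was covered to 62.4% and 55.6% with GFP and to 40.3% and 33.1% with SMARCB1.

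The cluster at chr3:14359597-14536214 was covered to 72.8% and 71.9% with GFP and to 44.6% and 39.5% with SMARCB1. It missed the limit with SMARCB1 by little, since its longest pieces there were 98.2 and 99.6 kb. The one at chr19:55753163-55922101 hardly differed in cover, at 43.7% and 39.6% with GFP and 43.6% and 35.5% with SMARCB1. The one at chr1:43379324-43539879 was covered to 77.5% and 77.7% against 44.5% and 38.1%. The most densely filled, chr15:35707200-35814991, had 84.7% and 87.3% covered with GFP and 53.9% and 50.1% with SMARCB1.

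Only 1 cluster of this class had no peak in either SMARCB1 library, and it is named after its values were seen. At chr10:54323978-54469727, a span of 146 kb, 55 and 50 GFP peaks covered 79.1% and 81.2%. No peak near a transcription start site was among them.

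**Figure D5:**
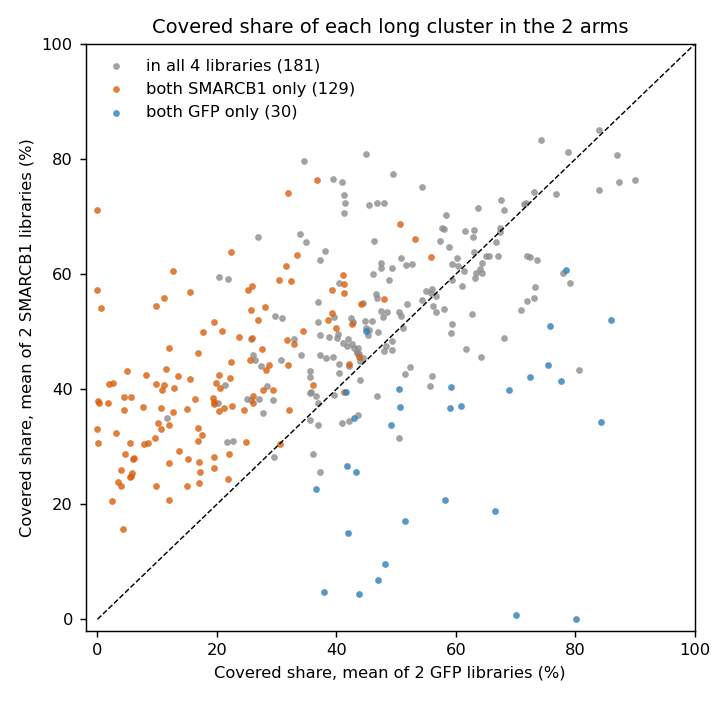
Covered share of each long cluster (%), mean of the 2 GFP libraries on the x axis and mean of the 2 SMARCB1 libraries on the y axis, 1 point per cluster, coloured by class, with the line of equal cover dashed. The 129 orange points lie mostly left of and above the line, down to 0% with GFP, and the 30 blue points mostly below it.

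The classes differed in how they were built up. In the SMARCB1 libraries, the clusters found with SMARCB1 only were covered to 46.1% and 40.4% within their own limits, against 60.6% and 56.4% for the common clusters in the same libraries. They held more peaks per 100 kb, 52.7 and 54.4 against 46.7 and 50.7. Peaks of 5 kb or wider made up 21.2% and 14.04% of their covered sequence, against 40.3% and 32.9%. The clusters of SMARCB1 only thus consisted of many narrow peaks.

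In the GFP libraries, the clusters found with GFP only were like the common ones. They were covered to 58.6% and 60.5% against 56.2% and 58.2%, held 44.8 and 41.4 peaks per 100 kb against 45.7 and 41.3, and had 45.5% and 51.3% of their covered sequence in peaks of 5 kb or wider against 44.7% and 49.96%. Each of these comparisons was made within 1 library. They use the lists that defined the classes and are given without a test.

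The width of a peak adds to the span by which clusters were chosen, so the shares of wide peaks are a description. The long clusters held 26.8% and 21.0% of the peaks of the GFP lists and 28.4% and 25.9% of those of the SMARCB1 lists. Of the widest 1% of peaks they held 56.5% and 52.6% with GFP and 61.0% and 55.6% with SMARCB1. Of the 1% with the highest fold enrichment, as the authors' peak caller gave it, they held 38.1% and 36.4% with GFP and 41.4% and 38.2% with SMARCB1. The typical peak inside and outside was of nearly the same strength, with a median fold enrichment of 4.60 inside and 4.60 outside in GFP replicate 1, 3.93 and 3.99 in GFP replicate 2, 3.72 and 3.69 in SMARCB1 replicate 1 and 3.73 and 3.68 in SMARCB1 replicate 2.

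Most peaks in the long clusters lay away from transcription start sites. The authors' stitched-region tables, whose headers call their regions TSS-distal, left out 23.5% and 26% of the peaks of the GFP lists and 16.2% and 18.2% of those of the SMARCB1 lists. Inside the long clusters the left-out share was 11.2% and 8.999% with GFP and 8.33% and 8.63% with SMARCB1, and outside it was 28.0% and 30.5% with GFP and 19.4% and 21.6% with SMARCB1. The share was lower inside in all 4 lists. The choice of clusters did not use this assignment.

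Some clusters held no peak near a start site in any library that had them. They numbered 21 of the 181 common clusters (11.6%), 16 of the 129 of SMARCB1 only (12.4%) and 6 of the 30 of GFP only. A common cluster must lack such a peak in 4 libraries and an arm-specific one in 2, which favours a lower common share. Within GFP replicate 1 alone, 6 of the 30 of GFP only and 37 of the 181 common clusters (20.4%) had none. In GFP replicate 2 these were 7 (23.3%) and 40 (22.1%). In the SMARCB1 libraries they were 20.2% and 16.3% of the clusters of SMARCB1 only, against 18.8% and 16.0% of the common ones. Among clusters of SMARCB1 only, the left-out share of peaks was 6.22% and 7.09%, and among the common clusters in the same libraries it was 8.07% and 8.84%. Among clusters of GFP only it was 9.74% and 9.15%, against 9.38% and 9.04% for the common ones.

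The tables' own TSS-distal regions of 100 kb or longer numbered 149 and 123 with GFP and 243 and 214 with SMARCB1. Between 41.4% and 51.0% of the long clusters of a library held such a region. In the other long clusters no TSS-distal region reached 100 kb.

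A small group of arm-specific clusters kept its class with equal numbers of peaks, with a -log10 q of at least 5 and with a fold enrichment of at least 4. It held 8 of the 129 clusters of SMARCB1 only and 10 of the 30 of GFP only, and 59 of the 181 common clusters did the same. Without the fold limit, which was chosen after seeing the data, 21, 14 and 83 kept their class under the other lists. The 8 and the 10 were singled out after the data had been seen. Among the 8 were the longest cluster of the class on chromosome 17 and the cluster on chromosome 6 without GFP peaks, both described above. The others were chr8:116421030-116634168 (29.5% and 31.4% covered with GFP, 61.3% and 56.6% with SMARCB1), chr3:29319189-29522608 (21.97% and 22.8% against 66.8% and 61.0%), chr4:187506970-187657845 (30.3% and 34.3% against 61.1% and 56.6%), chr2:235854408-235976737 (34.2% and 29.5% against 77.7% and 70.5%), chr6:10368591-10489984 (55.2% and 56.4% against 65.6% and 60.4%) and chr17:35618712-35730559 (11.2% and 11.1% against 44.8% and 36.5%). All 8 had GFP cover below SMARCB1 cover in every pair of libraries, as had 123 of all 129 clusters of the class. The selection of the class favours this direction.

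The 10 of GFP only included the clusters on chromosome 1, chromosome 3 and chromosome 10 described above, the longest, the one just under the limit and the one empty with SMARCB1. Next to these stood chr8:20079551-20194346, with 69.1% and 71.1% covered with GFP and 0.865% and 0.583% with SMARCB1. This cluster was nearly emptied, with 70 and 65 peaks against 3 and 2. In the other 6, SMARCB1 peaks still covered between 29.5% and 63.0% of the cluster, such as chr14:100838611-100949281 with 85.0% and 83.7% against 39.0% and 29.5%, and chr2:178444906-178596121 with 77.3% and 79.5% against 63.0% and 58.5%.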

How the data were processed

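H3K27ac chromatin immunoprecipitation libraries of G401 cells, 2 with GFP and 2 with SMARCB1, were grouped by their labels. The authors called peaks with MACS2 on hg19 and filtered them, per the deposited file and peak names, and the submitters' processing notes list BWA 0.7.12-r1039, SAMtools and bedtools. Its version, the control and the filter are not given in the sources used here. The deposited fold enrichment is a ratio of a peak's summit over the caller's background, and the deposited -log10 p and -log10 q are the caller's. Fold values were used only within a list. They were called on a step within 0.0005.

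The deposited stitched-region tables (ROSE, per the file headers) were used by coordinates and number of joined peaks only, and their 8 signal columns, ranks and super-enhancer calls were not used. Each was given to the library named in its header, and 100% of its region starts and stops were edges of that library's peaks. Peaks inside a cluster but not counted in a table were taken as near a start site, at a distance not given in the sources used here. Tables and lists carry no gene names, and no hg19 annotation was used here.

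Peaks were joined over gaps of 12500 bp or less, the distance named in the stitched tables' headers, and kept from 100 kb. Kept clusters were merged from 1 bp of overlap and classed by library. Covered share is the percent of a merged cluster under peaks. Group means were compared with exact two-sided permutation tests over libraries. Named clusters were the 6 longest of each class, those with the highest and lowest cover, and those next to the span limit. Clusters with the largest differences in cover, without a peak in the other arm, with a class kept under 3 shorter lists, or next to a cluster of the opposite class were named after their values were seen. The members and lists were chosen with earlier results of these data known. The scripts were tested on simulated data. Python 3.11.15, numpy 2.4.6, pandas 2.3.3 and matplotlib 3.10.9 were used.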

Additional observations from a re-analysis of the deposited data

How the results depend on the processing

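The alternatives with a fold of at least 4, with the strongest 40000 or 20000 peaks and with the deposited TSS-distal regions were chosen after seeing the data. The mean difference in long clusters between the arms (156.5) was 238.5 from a span of 75 kb, 66.5 from 150 kb and 38.5 with a -log10 q of at least 5. It reversed to -34 with equal numbers of peaks, -27.5 with a fold of at least 4, -33.5 with 40000 peaks and -22.5 with 20000, and ranged from 103.5 to 209.5 without 1 library. With equal numbers and with the fold limit the arms overlapped. With 40000 peaks (114 and 117 with GFP, 91 and 73 with SMARCB1) and 20000 (40 and 41, 21 and 15) both SMARCB1 libraries were below both GFP libraries. Clusters in both SMARCB1 libraries only (129) numbered 44 from 150 kb, 51 with the -log10 q limit, 43 with equal numbers, 21 with the fold limit, 17 with 40000 peaks, 2 with 20000, 48 when no joined cluster of 50 kb or more was allowed in the other arm, 79 with the deposited regions, and 139 to 219 without 1 library. Clusters in both GFP libraries only (30) numbered 14, 32, 69, 32, 33, 17, 8 and 19 under the same settings, and 34 to 77 without 1 library. Clusters in all 4 libraries (181) numbered 116 with a gap of 10 kb, 311 from 75 kb, 63 from 150 kb, 84, 117, 62, 41 and 11 with the 5 shorter lists in the same order, 67 with the deposited regions, and 185 to 227 without 1 library. Shorter lists and longer spans hold fewer clusters by construction. Leaving out a library favours higher class counts, since a class then asks for presence or absence in fewer libraries. The cause of the changed order of the arms was not tested.

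The covered-share difference of the common clusters (5.66 points) was 0.129 with the fold limit, reversed to -0.825 with 40000 peaks and -3.56 with 20000, and ranged from 2.04 to 8.04 without 1 library. The difference in peaks per 100 kb (7.10) reversed to -6.85 with equal numbers, -2.42 with the fold limit and -2.14 with 40000 peaks, and ranged from 4.97 to 10.4 without 1 library. With the replicate number as a block, the differences stayed at 5.66 points and 7.10 peaks by construction, with 8.14 and 3.17 points and 3.21 and 11.0 peaks in the pairs (exact sign-flip test, p = 0.5 for each, the smallest possible). No label ties a number to a shared batch. With 2 pairs of the same sign this test can give no other p. Both measures come from the lists that formed the clusters, so nothing is concluded from it. A gap of 15 kb and a presence rule of 50% of the merged cluster kept all class counts within 1.5 times. A gap of 10 kb gave 97 clusters in both SMARCB1 libraries only and 29 in both GFP libraries only. The number of libraries, and read depth known only from fold steps, limit what the class counts show.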

Other observations

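Clusters of opposite classes lay next to each other in 3 places, within 100 kb. On chromosome 1, the GFP-only cluster at chr1:110246126-110392095 (57.5% and 59.0% covered with GFP, 23.1% and 18.4% with SMARCB1) was 16.0 kb from the SMARCB1-only cluster at chr1:110408048-110560734, whose cover overlapped between the arms (40.8% and 41.8% with GFP, 41.1% and 37.9% with SMARCB1). On chromosome 14, the SMARCB1-only cluster at chr14:100678404-100813472 (34.0% and 27.2% against 34.9% and 25.9%) was 25.1 kb from the GFP-only cluster at chr14:100838611-100949281. On chromosome 4, the GFP-only cluster at chr4:1685085-1795440 (49.97% and 39.96% against 55.2% and 45.1%) was 16.8 kb from the SMARCB1-only cluster at chr4:1812228-2011819 (18.9% and 14.8% against 38.4% and 28.0%). In each pair at least 1 cluster had overlapping covered shares in the 2 arms.

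The long clusters lay on every autosome and on chromosome X, with none on chromosome Y. Chromosome 19 held 8.41% of the long clusters and 6.37% of all peaks, and chromosome 22 held 4.85% and 3.38%. Chromosome 22 had 11 clusters of SMARCB1 only, 4 common clusters and none of GFP only, while chromosome 19 had 4, 20 and 2. Over all chromosomes they numbered 129, 181 and 30. Clusters of SMARCB1 only also outnumbered common ones elsewhere, such as on chromosome 6 (8 and 2) and chromosome 14 (8 and 3). Chromosomes 5, 7 and 21 also had none of GFP only. The counts per chromosome are small, and nothing is read from them. Chromosome 18 had 3 common clusters and no arm-specific one. Chromosome X had 1 long cluster, of the GFP class. Of the 618 clusters, 147 had another within 100 kb.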
